A study of Schizosaccharomyces pombe with 2 samples.

Results

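A pair of loci on chromosome 2 of fission yeast (Schizosaccharomyces pombe), each about 5 kb long, gave RNA signal from 1 strand far above wild type in asf1-1 cells and in ∆hip1 cells. The loci were chosen by the log2 ratio of mutant over wild type on these same arrays, where they stood highest among stretches of at least 3 kb, so their ratios are a description and none was tested. They comprise every non-control probe in a range of 9 kb (179 probes, from 1812011 to 1820970, the minus-strand locus) and in a range of 10 kb (199 probes, from 1964011 to 1973970, the plus-strand locus), on both strands and both arrays. This makes 378 of the 43993 probes of the design.

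The study hybridised 2 two-colour tiling arrays, whose 60-base probes start every 50 bp on alternating strands. Red (Cy5) was asf1-1 RNA on the first array and ∆hip1 RNA (hip1 deleted) on the second, and green (Cy3) was wild type on both. Cells grew logarithmically in YEA, a rich medium, at 30 °C, and ribosomal RNA was removed before labelling. The labels and files used here do not state what the asf1-1 allele changes, the rest of each genotype, or whether the arrays shared a wild-type extract. With 1 array per mutant and no dye swap, dye bias and the effect of a mutant cannot be told apart, no p-value is given, and each SD is taken over probes. Positions are those of the array design, of a genome build not stated in the labels or files used here, and strand means the one written in a probe's position. No probe carries a gene name, so neither mutant could be checked through its own gene and no gene is assigned to the loci.

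Asf1 is a chaperone that binds histones H3 and H4 and passes them to other assembly factors. Hip1 is a subunit of the HIRA complex, which receives histones from Asf1 and deposits them on DNA outside replication. In fission yeast, HIRA is known for keeping Tf2 elements silent. These are long terminal repeat retrotransposons, which move through an RNA copy and exist as nearly identical copies at several places in the genome. The gene table of assembly ASM294v3 names 13 Tf2 genes of 4001 to 4117 bp, 3 of them on chromosome II. Its positions cannot be set against those of the array, and whether either locus holds such an element was not tested.

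Each locus held a single block on 1 strand, the unit, in which every probe was far brighter in the mutant channel. The minus-strand unit ran from 1814111 to 1819070 and the plus-strand unit from 1966661 to 1971620, with 147590 bp between them. Both were 4960 bp long, both held 50 probes of their own strand, and both had the same edge probes on both arrays. A unit was the longest run of probes at least 2-fold above wild type on 1 strand, with no more than 1 probe in a row under that level. At a 4-fold and at an 8-fold threshold the edges fell on the same probes. By the scanner's own log ratio the plus-strand unit of asf1-1 instead ended at 1972220 and was 5560 bp long. Neighbouring probes of a strand leave 40 bp uncovered between them, which limits how finely an edge is placed.

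**Figure D1:**
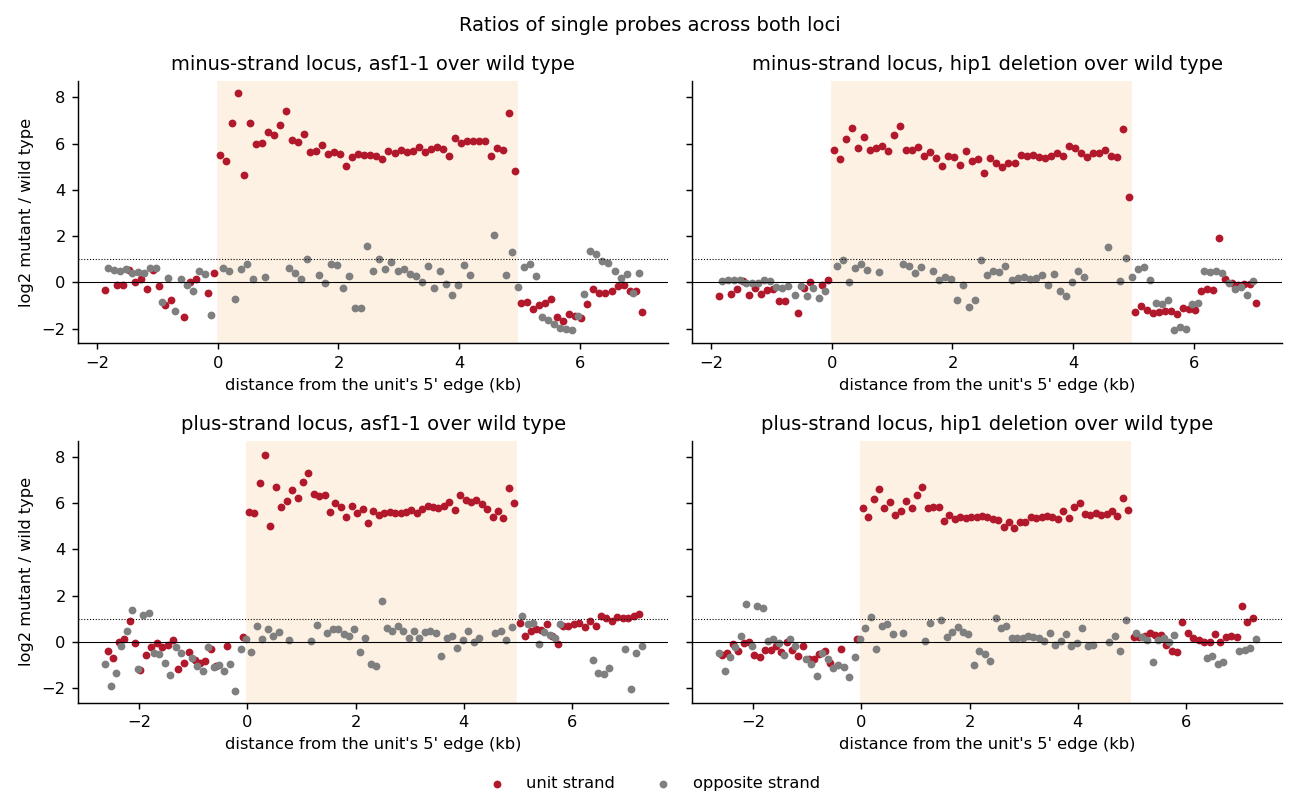
Log2 ratio of mutant over wild type of each probe used (y axis) against the distance of the probe from the 5′ edge of the unit in kb (x axis), for asf1-1 (left) and ∆hip1 (right) at the minus-strand locus (top) and the plus-strand locus (bottom). Shading marks the unit of 4.96 kb and the dotted line a 2-fold rise. Inside the unit the probes of its own strand lie between 3.68 and 8.19, and those of the opposite strand between -1.13 and 2.06.

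In asf1-1 the log2 ratios of the 50 probes of the minus-strand unit ranged between 4.63 and 8.19, with a median of 5.74 ± 0.64 (SD over probes), a level 53.6-fold above wild type. In ∆hip1 they ranged between 3.68 and 6.74, with a median of 5.49 ± 0.50, or 44.9-fold. The plus-strand unit ranged between 5.003 and 8.09 in asf1-1 (median 5.82 ± 0.55, or 56.5-fold) and between 4.91 and 6.68 in ∆hip1 (median 5.49 ± 0.37, or 44.9-fold). On each array the medians of the units differed by less than the SD over their own probes.

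All 100 unit-strand probes were at least 2-fold higher in each mutant, where 16.6% of the 40664 probes used on the array were so in asf1-1 and 14.9% in ∆hip1. All 100 were also at least 8-fold higher, against 1.53% of the array in asf1-1 and 1.45% in ∆hip1. At least 32-fold higher were 98 of them in asf1-1, against 0.401% of the array, and 95 in ∆hip1, against 0.33%. Of all 163 probes of the array past that mark in asf1-1 and 134 in ∆hip1, these were the greater part. The loci were picked by these ratios, so nothing is read from the counts.

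The spot intensities behind these ratios were high in the mutants and moderate in wild type. The median over the minus-strand unit was 167838 in asf1-1 against 3624 in wild type on the same array, and 164252 in ∆hip1 against 5142 in wild type. Over the plus-strand unit it was 175244 in asf1-1 against 3620.25 in wild type, and 165200 in ∆hip1 against 5303.75 in wild type. All 100 probes were well above background in all 4 channels and none was saturated, so every ratio was measured on both sides. Wild-type cells thus also gave a signal at every probe of both unit strands. Probe sequences were not used here, and the part that RNA of similar sequences elsewhere plays in either channel was not tested.

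**Figure D2:**
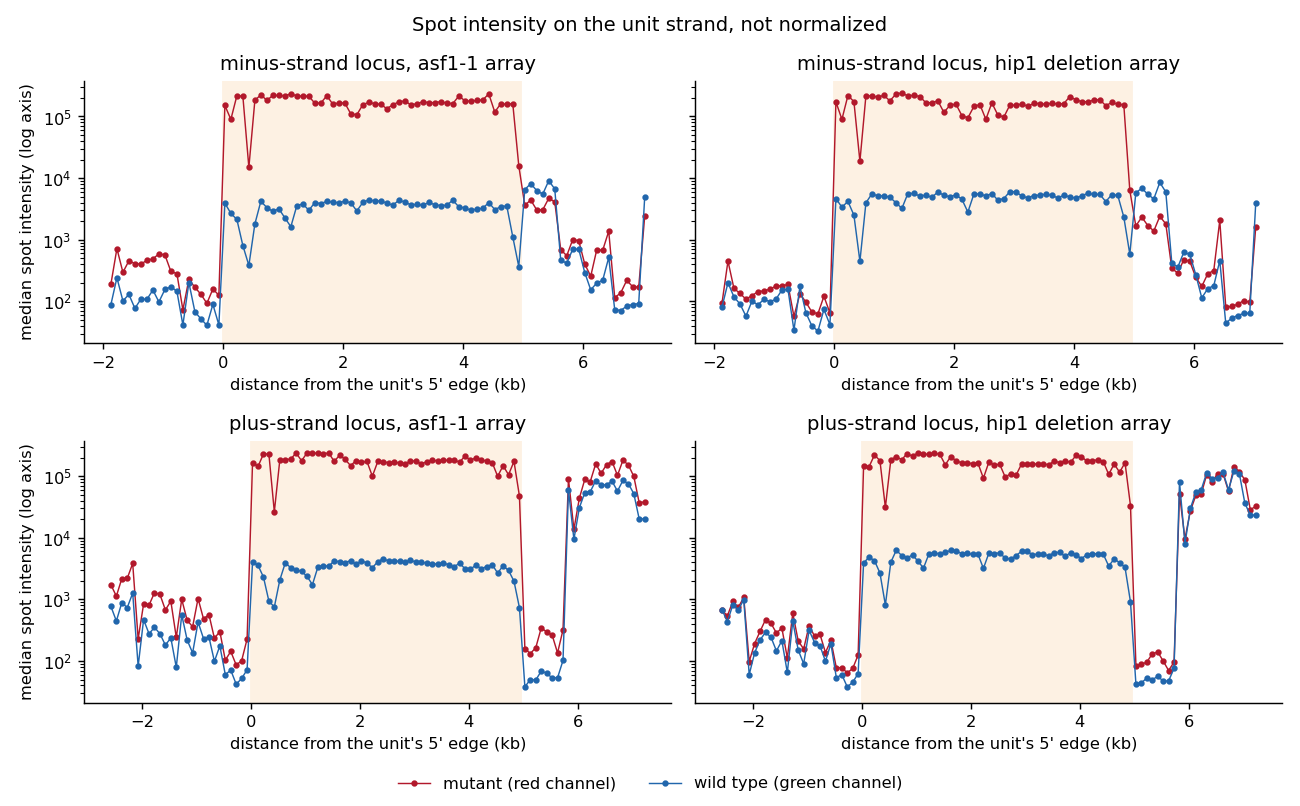
Median spot intensity without normalization on a log axis (y) against the distance from the 5′ edge of the unit in kb (x), for probes of the unit strand in the mutant channel and in the wild-type channel of each array. Over the shaded units the medians of the mutant channel are 164252 to 175244 and those of the wild-type channel 3620.25 to 5303.75.

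The ratio dropped between neighbouring probes at all 4 edges; 5′ and 3′ are named along the unit strand. At the 3′ edge of the minus-strand unit the last probe inside (1814111 to 1814170) had log2 ratios of 4.80 (asf1-1) and 3.68 (∆hip1), and the next one outside (1814011 to 1814070) had -0.89 in asf1-1 and -1.30 in ∆hip1. Inside, the intensity was 16013 in asf1-1 against 368 in wild type, and 6333 in ∆hip1 against 584 in wild type. Outside, it was 3620 in asf1-1 against 6510 in wild type, and 1675 in ∆hip1 against 5742 in wild type. Both probes were well above background in wild type, so the sign of the ratio turned between neighbours that were both measured.

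At the 5′ edge of the minus-strand unit the first probe inside (1819011 to 1819070) had a ratio of 5.53 in asf1-1 and 5.73 in ∆hip1, with intensities of 150942 in asf1-1 against 3919.5 in wild type, and 172552 in ∆hip1 against 4662 in wild type. The probe beyond it (1819111 to 1819170) had 126 in asf1-1 against 41.5 in wild type, and 65 in ∆hip1 against 42 in wild type. At the 5′ edge of the plus-strand unit the probe inside (1966661 to 1966720) had a ratio of 5.63 in asf1-1 and 5.78 in ∆hip1, with 164809 in asf1-1 against 3998 in wild type, and 144891 in ∆hip1 against 3886 in wild type. The probe outside (1966561 to 1966620) had 227 in asf1-1 against 72 in wild type, and 125 in ∆hip1 against 62.5 in wild type. Both outer probes were not well above background in wild type on either array.

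At the 3′ edge of the plus-strand unit the probe inside (1971561 to 1971620) had a ratio of 5.99 in asf1-1 and 5.72 in ∆hip1, with 47505.5 in asf1-1 against 733.5 in wild type, and 33112 in ∆hip1 against 909 in wild type. The probe outside (1971661 to 1971720) had a ratio of 0.81 in asf1-1 and 0.21 in ∆hip1. Its intensities were 158 in asf1-1 against 38 in wild type, and 84 in ∆hip1 against 42 in wild type. The wild-type signal there was again not well above background. Probes at background in wild type went on for 7 in a row past this edge by the asf1-1 array, and for 8 by the ∆hip1 array. Past the 5′ edge of this unit there were 5 by each array, and past the 5′ edge of the minus-strand unit 5 (asf1-1 array) and 1 (∆hip1 array). The minus-strand unit's 3′ edge was thus the only one of the 4 with a measured wild-type signal right beside it.

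Along each unit the ratio was uneven, with a like shape at both loci. In bins of 500 bp from the 5′ edge, of 5 probes each, the bin from 1000 to 1500 bp had the highest median on both arrays. It stood at 6.40 (asf1-1) and 5.84 (∆hip1) in the minus-strand unit, and at 6.41 (asf1-1) and 5.82 (∆hip1) in the plus-strand unit. The minus-strand unit was lowest between 2500 and 3000 bp, at 5.51 (asf1-1) and 5.17 (∆hip1). The plus-strand unit was lowest between 2000 and 2500 bp in asf1-1, at 5.55, and between 2500 and 3000 bp in ∆hip1, at 5.18. From 4000 to 4500 bp it was higher again, at 6.11 (asf1-1) and 5.58 (∆hip1) in the minus-strand unit, and at 6.04 (asf1-1) and 5.54 (∆hip1) in the plus-strand unit.

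In asf1-1 the fourth probe from the 5′ edge had the highest ratio of each unit. At the minus-strand locus (1818711 to 1818770) it was 8.19 in asf1-1 and 6.69 in ∆hip1, with intensities of 213449 in asf1-1 against 804 in wild type, and 174578 in ∆hip1 against 2511 in wild type. At the plus-strand locus (1966961 to 1967020) it was 8.09 in asf1-1 and 6.63 in ∆hip1, with 228578 in asf1-1 against 938.5 in wild type, and 178382 in ∆hip1 against 2682 in wild type. On a scale common to both arrays, the wild-type signal of this probe was lower on the asf1-1 array, with a difference of -1.64 (log2) at the minus-strand locus and -1.51 at the plus-strand locus, while the mutant signal differed by -0.15 and -0.051. Most of the gap between the mutants at this probe thus lay in the wild-type channels.

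In asf1-1 the fifth probe had the lowest loess-normalized ratio of each unit, right beside the highest. At the minus-strand locus (1818611 to 1818670) it was 4.63 in asf1-1 and 5.79 in ∆hip1, with 14931 in asf1-1 against 383 in wild type, and 18717.5 in ∆hip1 against 446 in wild type. At the plus-strand locus (1967061 to 1967120) it was 5.003 in asf1-1 and 5.78 in ∆hip1, with 26308 in asf1-1 against 750 in wild type, and 31055 in ∆hip1 against 810 in wild type. On the common scale the mutant signal of this probe differed by -1.44 (asf1-1 minus ∆hip1) at the minus-strand locus and -1.06 at the plus-strand locus, against -0.29 at each in wild type. On that scale most of the gap between the mutants lay in the mutant channels. The scanned intensities above differed far less between the arrays, so the size of this gap depended on the normalization. In ∆hip1 this probe lay above the median of both units. The lowest ratio there was 3.68 at the last probe of the minus-strand unit, and 4.91 in the plus-strand unit, in its bin from 2500 to 3000 bp. By scanned intensity in asf1-1, other probes had a smaller ratio than the fifth. At 1816911 to 1816970 (minus-strand locus) 110215 in asf1-1 stood against 3978 in wild type. At 1968861 to 1968920 (plus-strand locus) 99596.5 in asf1-1 stood against 3254 in wild type.

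**Figure D3:**
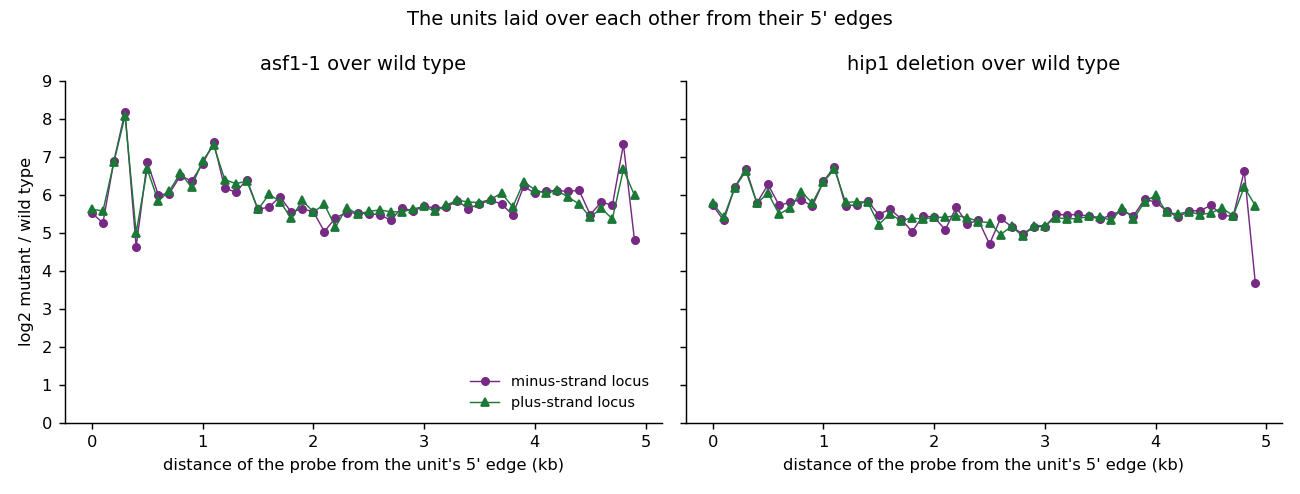
Log2 ratio of mutant over wild type (y axis) of the 50 probes of each unit against their distance from the unit's 5′ edge in kb (x axis), in asf1-1 (left) and ∆hip1 (right), with the minus-strand and the plus-strand unit drawn in different markers. The traces follow each other along most of the length and part at the last probe, where the minus-strand unit has 4.80 and the plus-strand unit 5.99 in asf1-1, and 3.68 and 5.72 in ∆hip1.

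Laid over each other from their 5′ edges, the units matched closely. The median absolute difference between probes at the same distance was 0.12 (log2) in asf1-1 and 0.09 in ∆hip1, and the largest, at the last probe, was 1.19 in asf1-1 and 2.04 in ∆hip1. Across the 50 pairs Pearson's r of the ratios was 0.91 in asf1-1 and 0.73 in ∆hip1, and without the last probe it was 0.94 and 0.91 over 49 pairs. A shift by 1 probe in either direction gave 0.10 and 0.19 in asf1-1, and 0.30 and 0.55 in ∆hip1. The log2 intensity had an r of 0.92 in asf1-1 and 0.90 in ∆hip1, with 0.97 and 0.96 in their wild-type channels. These are descriptions across pairs of probes that share an array and its labelling, whose neighbours are not independent, and whose pairing followed from the edges. Probe sequences were not used, so whether the probes of a pair read the same RNA was not tested.

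The ratios of the unit strand were not shared by the opposite strand. Between the edges of the minus-strand unit, 40 of 49 opposite-strand probes were used. Their median log2 ratio was 0.45 ± 0.62 in asf1-1, with 3 probes at least 2-fold higher, and 0.32 ± 0.52 in ∆hip1, with 2. Between the edges of the plus-strand unit, 42 of 49 were used, with a median of 0.37 ± 0.48 and 1 such probe in asf1-1, and of 0.23 ± 0.48 and 2 such probes in ∆hip1. These shares, 2.38% to 7.5%, were below the 16.6% (asf1-1) and 14.9% (∆hip1) of the whole array, but that order depended on the scaling. With the scanner's own log ratio the counts in asf1-1 were 25 of 40 (62.5%, minus-strand locus) and 17 of 42 (40.5%, plus-strand locus), above the 24.5% of the array at that scaling. In ∆hip1 they were 16 of 40 (40%) and 16 of 42 (38.1%), above 21.2%. Whether the opposite strand had more or fewer probes past 2-fold than the array is thus not settled. A probe was used if any channel was above background, and most of these probes were not so in wild type. Over the 9 probes at each locus above background in all channels, the asf1-1 median was -0.26 at both loci. In ∆hip1 it was -0.12 (minus-strand locus) and -0.15 (plus-strand locus). The sign of these medians thus depended on which probes were kept. With the loess-normalized ratios no opposite-strand probe inside the units reached 8-fold on either array.

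A few opposite-strand probes stood out, in part at the same distance at both loci. The highest ratio, at 1814461 to 1814520 and 4550 bp from the 5′ edge, was 2.06 in asf1-1 and 1.54 in ∆hip1, with intensities of 2886 in asf1-1 against 153 in wild type, and 840 in ∆hip1 against 124.5 in wild type. The probe at that distance in the plus-strand unit had 0.40 in asf1-1 and 0.01 in ∆hip1. At 2450 bp the ratio was 1.55 (asf1-1) and 0.95 (∆hip1) at the minus-strand locus and 1.75 (asf1-1) and 1.04 (∆hip1) at the plus-strand locus, and the wild-type signal there was not well above background. The probe before it, at 2350 bp, was measured in all channels. Its loess-normalized ratio was -1.13 (asf1-1) and -0.75 (∆hip1) at the minus-strand locus, and -1.06 (asf1-1) and -0.84 (∆hip1) at the plus-strand locus. Its intensities at the minus-strand locus were 789 in asf1-1 against 410 in wild type, and 513 in ∆hip1 against 521 in wild type. At the plus-strand locus they were 867 in asf1-1 against 419 in wild type, and 577 in ∆hip1 against 678 in wild type. In asf1-1 the scanned mutant signal was thus the higher, and the sign turned with normalization.

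Opposite-strand probes were above background more often in the mutant channel than in wild type. Between the edges of the minus-strand unit 41 of 49 were well above background in asf1-1 against 10 in wild type, and 34 in ∆hip1 against 17 in wild type. In the plus-strand unit they numbered 42 in asf1-1 against 10 in wild type, and 33 in ∆hip1 against 18 in wild type. Above background in the mutant channel alone were 31 (minus-strand locus) and 32 (plus-strand locus) of 49 in asf1-1, and 17 and 15 of 49 in ∆hip1. Over the whole array the mutant channel passed this mark more often too, with 93.9% of probes in asf1-1 against 79.6% in wild type, and 88.8% in ∆hip1 against 78.9% in wild type. All 4 channels therefore lay under the array's share on these strands, and the gap between mutant and wild type was wider here than over the array. In asf1-1 the shares were 83.7% against 20.4% (minus-strand locus) and 85.7% against 20.4% (plus-strand locus). In ∆hip1 they were 69.4% against 34.7% and 67.3% against 36.7%. The array's share of probes above background in the mutant channel alone was not taken.

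No flank, taken from an edge to the end of its range, came near the level of the units. Downstream of the minus-strand unit, the 21 probes of the unit strand from 1812011 to 1814070 had median log2 ratios of -0.89 ± 0.49 (asf1-1) and -1.03 ± 0.79 (∆hip1). At least 2-fold lower were 7 of them in asf1-1, where 13.5% of the array were, and 11 in ∆hip1, where 7.41% were. With the flank taken as 5 kb the medians were nearer to 0, at -0.40 (asf1-1) and -0.31 (∆hip1). Median centring gave -0.33 (asf1-1) and -0.50 (∆hip1) for the flank in the range. Its median scanned intensity was 690 in asf1-1 against 463.5 in wild type, and 343 in ∆hip1 against 422 in wild type. In asf1-1 the lower median thus held for the normalized ratio only. The flank's probe beside the edge was lower by scanned intensity too, at 3620 in asf1-1 against 6510 in wild type. Upstream of this unit, from 1819111 to 1820970, the 16 probes used had a median of -0.13 ± 0.54 (asf1-1) and -0.31 ± 0.38 (∆hip1). Upstream of the plus-strand unit, from 1964061 to 1966620, the 23 probes used had -0.31 ± 0.51 (asf1-1) and -0.38 ± 0.27 (∆hip1). The sign of these upstream medians turned under median centring, which gave 0.48 (asf1-1) and 0.093 (∆hip1) at the minus-strand locus and 0.44 (asf1-1) and 0.17 (∆hip1) at the plus-strand locus.

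Downstream of the plus-strand unit, from 1971661 to 1973920, the 23 probes of the unit strand had medians of 0.78 ± 0.32 (asf1-1) and 0.23 ± 0.44 (∆hip1). After the stretch at background beside the edge, the probe at 1972461 to 1972520 had 50683.5 in ∆hip1 against 80700 in wild type, a ratio of -0.42. Further on, the asf1-1 array had a run of 10 probes from 1973161 to 1974120, which crosses the end of the range. The medians of this run were 1.06 (asf1-1) and 0.35 (∆hip1). Within it the ∆hip1 array had a run of 3 probes, from 1973661 to 1973920, with medians of 1.14 (asf1-1) and 1.02 (∆hip1). On the opposite strand of the upstream flank of this unit, 4 probes from 1964511 to 1964870 had medians of 1.20 (asf1-1) and 1.51 (∆hip1). Over whole flanks the opposite strand had medians of -0.90 to 0.40 in asf1-1, and of -0.48 to -0.10 in ∆hip1, and 7 of these 8 medians changed sign under at least 1 alternative, so no direction is given for them.

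The ratios of the units were slightly higher in asf1-1, but the mutant channels did not show this order once scaled alike. The median difference of log2 ratios, asf1-1 minus ∆hip1, was 0.34 ± 0.39 in the minus-strand unit and 0.39 ± 0.32 in the plus-strand unit (SD over probes), with 44 and 43 of 50 probes higher in asf1-1. On a scale common to both arrays the mutant channels differed by -0.18 ± 0.28 and -0.16 ± 0.23, with 9 and 4 of 50 probes higher in asf1-1. Their scanned median intensities were higher in asf1-1, at 167838 against 164252 in ∆hip1 (minus-strand unit) and 175244 against 165200 (plus-strand unit). The order of the mutant channels thus depended on the scaling. The wild-type channels differed by -0.45 ± 0.29 and -0.53 ± 0.26, with 49 and 48 of 50 probes lower on the asf1-1 array, where over all probes the wild-type difference had a median of 0.0076 and an SD of 0.32. With the wild-type channels exchanged between the arrays the order of the mutants turned, with medians of 5.35 (asf1-1) and 5.96 (∆hip1) in the minus-strand unit and of 5.31 (asf1-1) and 5.96 (∆hip1) in the plus-strand unit. Median centring turned it as well, with differences of -0.13 and -0.054.

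By the same edge rule, the array held 14 runs of 3 kb or more in asf1-1 and 11 in ∆hip1, the units included, and the units had the highest medians among them on both arrays. Apart from the units, 3 such runs in asf1-1 and 1 in ∆hip1 had a median of at least 3 (log2). On chromosome 2, the minus strand from 1949611 to 1952870 had 4.04 (asf1-1) and 2.54 (∆hip1), and from 1213311 to 1216870 it had 3.32 (asf1-1) and 1.504 (∆hip1). On chromosome 3, the run at 2661 to 5720 (plus strand) had 3.55 (asf1-1) and -0.81 (∆hip1). The run found in ∆hip1, on the minus strand of chromosome 2 from 2167811 to 2171370, had 2.77 (asf1-1) and 3.28 (∆hip1). The units were not the longest runs: 1 of 5260 bp, at 1481461 to 1486720 of chromosome 2 (plus strand), had 1.59 (asf1-1) and 1.69 (∆hip1). Among runs of at least 2 probes the median length was 560 bp in asf1-1 and 660 bp in ∆hip1, and 2 runs in asf1-1 and 4 in ∆hip1, of at most 4 probes each, had higher medians than the units.

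**Figure D4:**
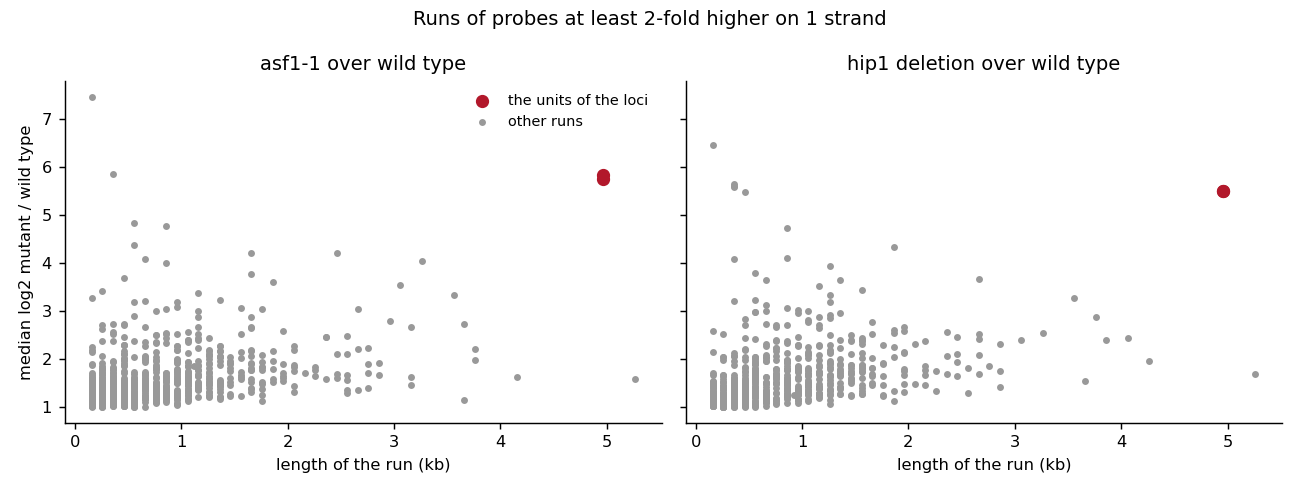
Median log2 ratio of mutant over wild type (y axis) against length in kb (x axis) of runs of at least 2 probes on 1 strand past a 2-fold rise, in asf1-1 (left) and ∆hip1 (right). The units lie at 4.96 kb with medians of 5.74 and 5.82 in asf1-1 and of 5.49 each in ∆hip1, and no other run of at least 3 kb exceeds 4.04 in asf1-1 or 3.28 in ∆hip1.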

How the data were processed

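The arrays were scanned and quantified with Agilent Feature Extraction 10.1.1.1, per the file headers. Of the deposited columns, the median intensity of a spot and of its surroundings was used as the scanner gave it. The deposited log10 ratio had been background-subtracted and dye-normalized by that software, and its deposited p-value refers to a single spot. The authors' series table held that ratio as log2, with 0 in place of values whose p-value exceeded 0.05 (36.1% of probes for asf1-1, 43.1% for ∆hip1), and a column median of 0 on both arrays.

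Here, intensities were background-corrected by normexp with an offset of 50 (limma 3.58.1, R 4.3.3), and log2 ratios of red to green were then loess-normalized array by array. The 1227 control spots and all outlier spots had weight 0. Ratios describe change relative to the bulk of probes. Of 43993 probes, 850 outliers and those above background in no channel were dropped, which left 40664, and 346 of the 378 at the loci after 2 outliers and 30 dim probes. A gap of over 250 bp between probe starts ended a run. To compare arrays, average log intensities were quantile-normalized (Aquantile). No test was run, and the number of arrays limits the precision.

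The loci, regions and summaries were chosen with earlier results of these data known. Regions named are the units, their edge probes, highest and lowest probes, bins, flanks, and runs of at least 3 kb with a median of at least 3. The opposite-strand probes at matching distances, the shorter runs beside the units and the longest run were chosen after their values were seen. The unit probes set beside the fifth by scanned intensity were chosen likewise. The steps were tested on simulated data. Summaries used Python 3.11.15.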

Additional observations from a re-analysis of the deposited data

How the results depend on the processing

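No paired analysis was possible because neither mutant had more than 1 array. A median counted as moved past the SD over its probes, a count past 1.5 times and an edge past 100 bp; the cause was not tested for any change. Under the alternatives the unit medians of asf1-1 lay at 4.63 to 5.91 (minus-strand locus) and 4.70 to 5.95 (plus-strand locus), and those of ∆hip1 at 4.81 to 5.96 and 4.80 to 5.96. All 50 probes of each unit strand passed 2-fold in every alternative run. Dim probes limit the opposite strand, where 9 probes at each locus were above background in all channels.

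Median centring gave unit medians of 4.63 (asf1-1) and 4.81 (∆hip1) at the minus-strand locus and of 4.70 (asf1-1) and 4.80 (∆hip1) at the plus-strand locus. It gave differences between the mutants, asf1-1 minus ∆hip1, of -0.13 (minus-strand locus) and -0.054 (plus-strand locus). It gave unit-strand upstream flanks of 0.48 (asf1-1) and 0.093 (∆hip1) at the minus-strand locus and of 0.44 (asf1-1) and 0.17 (∆hip1) at the plus-strand locus, and downstream ones in asf1-1 of -0.33 (minus-strand locus) and 0.16 (plus-strand locus). Its opposite-strand upstream flanks were -0.44 (asf1-1) and -0.63 (∆hip1) at the minus-strand locus and 0.11 in asf1-1 at the plus-strand locus. Downstream of the minus-strand unit the opposite strand in ∆hip1 had 0.22 with median centring and 0.095 with loess on bright probes. Crossed wild-type channels gave 5.96 for the plus-strand unit in ∆hip1 and differences of -0.64 and -0.71. Flanks of 5 kb gave -0.40 (asf1-1) and -0.31 (∆hip1) downstream of the minus-strand unit, 0.058 on its opposite strand in ∆hip1, and -0.011 upstream of the plus-strand unit in ∆hip1. Upstream of the minus-strand unit, scanner log ratio and series table each gave -0.77 in ∆hip1, and loess on bright probes 0.52 (asf1-1) and 0.092 (∆hip1). By scanner log ratio the plus-strand unit of asf1-1 ended at 1972220 and was 5560 bp long.

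On the opposite strand of the minus-strand unit, the asf1-1 median was 1.22 by scanner log ratio, 1.21 with loess on bright probes and -0.26 with probes above background in all channels. At the plus-strand unit, loess on bright probes gave 1.01 (asf1-1) and 0.76 (∆hip1), and probes above background in all channels -0.26 in asf1-1. Opposite-strand counts past 2-fold, minus-strand then plus-strand locus, were 7 and 2 without background subtraction in asf1-1. By scanner log ratio they were 25 and 17 (asf1-1), 16 and 16 (∆hip1), and by the authors' series values 18 and 10 (asf1-1), 15 and 12 (∆hip1). With median centring they were 13 and 8 (asf1-1), 11 and 11 (∆hip1), and with loess on bright probes 26 and 21 (asf1-1), 12 and 8 (∆hip1). Crossed channels gave 9 and 9 in ∆hip1. Probes above background in all channels gave 0 (asf1-1) and 1 (∆hip1) at the plus-strand locus. At 4-fold the counts were 1 and 0 (asf1-1), 0 and 0 (∆hip1), and at 8-fold 0 at both loci on both arrays. Of the whole array, past 2-fold were 24.5% (asf1-1) and 21.2% (∆hip1) by scanner log ratio, 23.2% (asf1-1) and 19.9% (∆hip1) by the series values, 29.1% (asf1-1) and 21.9% (∆hip1) under median centring, and 25.4% (asf1-1) and 18.2% (∆hip1) under loess on bright probes.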
